A study of Mus musculus with 12 samples.

Results

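The genes described here build the MHC class I antigen display: the classical heavy chains H2-K1 and H2-D1, their light chain B2m, the peptide transporter subunits Tap1 and Tap2, the loading chaperone Tapbp (tapasin), the immunoproteasome subunits Psmb8, Psmb9 and Psmb10, and the regulator Nlrc5. They were chosen by symbol, and all 10 of the 10 were found among the 24421 genes of the deposited count table and passed the filter on low counts. RNA was sequenced from isolated mouse islets, labelled as predominantly beta cells, in 6 groups of 2 libraries each (A and B). Controls carried floxed alleles of the clock gene Bmal1 (Bmal1fl/fl), and knockouts carried the same alleles with a Cre-ER transgene under an insulin promoter (Bmal1fl/flRIPCreERT/+), which acts in beta cells and leaves Bmal1 in the other cells of the islet. Islets of each genotype were taken 24 h after citrate buffer (VEH, the vehicle), 24 h after the beta-cell toxin streptozotocin (STZ), or 4 wk after STZ. No vehicle group at 4 wk was analysed here, so a difference between STZ at 4 wk and VEH mixes treatment with time. The labels do not say whether A and B are separate animals, nor the age of the mice, so each p-value speaks of variation from library to library and may reflect no more than technical variation.

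As background, MHC class I molecules carry peptides of a cell's own proteins to its surface, where CD8 T cells read them. The peptides are cut by the proteasome, and interferon replaces its constitutive catalytic subunits Psmb5, Psmb6 and Psmb7 with the inducible Psmb8, Psmb9 and Psmb10. The cut peptides enter the endoplasmic reticulum through the Tap1-Tap2 transporter and are loaded with the help of tapasin, while Nlrc5 drives transcription of class I genes from a conserved promoter module. Raised class I on beta cells is a known feature of autoimmune diabetes, and nearly all nucleated cells, leukocytes most of all, express these genes.

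On mm10, 7 of the 10 genes lie in the MHC region of chromosome 17. H2-K1 spans chr17:33996012-34000333 on the minus strand and H2-D1 spans chr17:35263094-35267497 on the plus strand. Psmb9 (chr17:34182099-34187330, minus), Tap1 (chr17:34187556-34197225, plus), Psmb8 (chr17:34198195-34201454, plus) and Tap2 (chr17:34204479-34216321, plus) are neighbours, and 225 bases separate the divergent starts of Psmb9 and Tap1. Tapbp is at chr17:33919478-33929290 (plus). Outside the region, B2m lies at chr2:122147687-122153082 (plus), Psmb10 at chr8:105935728-105938392 (minus) and Nlrc5 at chr8:94472763-94527272 (plus, 49 exons).

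The upstream sequences of the heavy chains and their light chain are shown because these genes, on different chromosomes or far apart on chromosome 17, share the same arrangement of short motifs. Each is a stretch of 130 bases before the annotated start, 5′ to 3′ on the gene's strand, from RefSeq (GRCm38.p6): chr17:34000335-34000464 for H2-K1, chr17:35262916-35263045 for H2-D1 and chr2:122147509-122147638 for B2m. Capitals mark matches to the motifs searched on both strands, which were the ISRE core GAAANNGAA, the GAS motif TTCNNNGAA, the Y box CCAAT, the X2/CRE core TGACG, the E box CACGTG and the kB consensus. A Y box on the other strand reads ATTGG.
H2-K1: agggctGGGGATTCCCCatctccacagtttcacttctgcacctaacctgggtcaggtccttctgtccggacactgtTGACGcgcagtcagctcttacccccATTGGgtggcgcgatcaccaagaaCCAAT
H2-D1: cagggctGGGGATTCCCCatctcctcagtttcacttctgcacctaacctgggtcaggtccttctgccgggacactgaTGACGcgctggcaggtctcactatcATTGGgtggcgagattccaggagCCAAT
B2m: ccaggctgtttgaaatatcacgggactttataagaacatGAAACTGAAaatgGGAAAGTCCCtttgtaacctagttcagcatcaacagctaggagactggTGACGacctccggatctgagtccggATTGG

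In each of the 3 sequences a kB match is followed by TGACG and then ATTGG, and the ATTGG starts 25 bases after the start of TGACG. That spacing, chosen after the sequences were seen, occurs in 30 of 32817 RefSeq promoter windows of 250 bases (0.0914%). Of the 8 members with an entry in the promoter table (Tap2 and Nlrc5 are named only), 6 hold a Y box, against 33.8% of all windows, and 5 hold the X2/CRE core, against 17.7%. The windows of Psmb9 and Tap1 overlap. Their Y box match is the same stretch of DNA, and so is their X2/CRE match, so each is counted for both genes. Matches to the kB consensus were found in 3 of 8, against 5.0% of windows. The ISRE core in the spelling searched was found in B2m alone, upstream of its kB match (7.12% of windows). Other spellings of the ISRE were not searched, so H2-K1, H2-D1 and the other members without a match may still hold one. The GAS motif was found in Psmb8 alone (7.01% of windows). The E box read by the Bmal1 protein and its partner was found in Psmb10 alone, against 6.02% of windows. The ISRE and kB matches of B2m do not overlap, and a match describes letters, not binding.

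Library totals ran from 101772241 to 127207523 estimated counts, of which the 10 genes together took 0.0355% to 0.186%. As a check on genotype, coverage of exon 8 of Arntl (the gene of Bmal1) relative to its transcript was 1.56 to 1.99 in the 6 control libraries (median 1.72) and 0.627 to 1.37 in the 6 knockout libraries (median 0.820), without overlap, although the sources used here do not name the floxed exon. Levels are given as CPM, counts scaled to library size after TMM normalisation, which compare libraries for 1 gene. The count of Arntl as a whole does not check the deletion and was higher in vehicle knockout islets (17.8 and 19.9 CPM) than in vehicle control islets (8.79 and 8.37 CPM). After STZ the order turned. Knockout islets held 8.88 and 9.43 CPM against 11.2 and 10.8 CPM in control islets at STZ 24 h. The levels at STZ 4 wk were 11.3 and 11.6 CPM in knockout against 20.6 and 20.4 CPM in control islets. Beta-cell markers, 12 genes with Ins1, Ins2 and Iapp among them, summed to 84560 to 146100 CPM in the control groups and the vehicle knockout, and to 22760 to 25330 CPM in knockout islets 24 h after STZ. Acinar genes, from digestive tissue around the islets, were present in every group at levels that differed between genotypes. Under vehicle they summed to 213500 to 228600 CPM in control and 45020 to 51840 CPM in knockout islets. Their sums at STZ 24 h were 125900 to 129800 CPM in control and 242200 to 254700 CPM in knockout islets. By STZ 4 wk these were 93060 to 107400 CPM and 114900 to 143000 CPM. The part of acinar tissue in the class I differences was not tested. The 2 libraries of a group differed far more at control STZ 4 wk, knockout VEH and knockout STZ 4 wk (chi-square per degree of freedom of 318, 266 and 462) than in the other groups (24.5 to 44.2). In those 3 groups the share of coverage lying 5′ of the midpoint of Tapbp's longer transcript also parted the libraries, at 9.64% against 23.9% (A and B, control STZ 4 wk), 17.4% against 5.02% (knockout VEH) and 6.94% against 28.6% (knockout STZ 4 wk).

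Levels between genes are given as TPM, the abundance scaled to both transcript length and library size. Adjusted p-values are from edgeR's quasi-likelihood test with Benjamini-Hochberg adjustment over the 17411 genes tested, and a gene is called at an adjusted p under 0.05. Fold changes are on the log2 scale with their standard error (SE).

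In vehicle control islets the order by TPM was B2m (120 and 135 TPM in A and B) and H2-K1 (110 and 106), then H2-D1 (78.5 and 70.3) and Tapbp (25.6 and 27.4). Psmb10 (10.9 and 7.82), Psmb9 (7.06 and 5.04), Psmb8 (6.20 and 6.34) and Tap2 (6.07 and 5.11) followed closely, and their ranges overlap or nearly touch. Tap1 stood at 1.97 and 2.00 TPM and Nlrc5 at 0.425 and 0.193. In knockout islets 24 h after STZ the order had B2m far ahead, at 1466 and 1384 TPM, with H2-K1 at 369 and 383, H2-D1 at 302 and 333, and Psmb8 (43.6 and 46.3) above Tapbp (33.3 and 35.9).

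**Figure D1:**
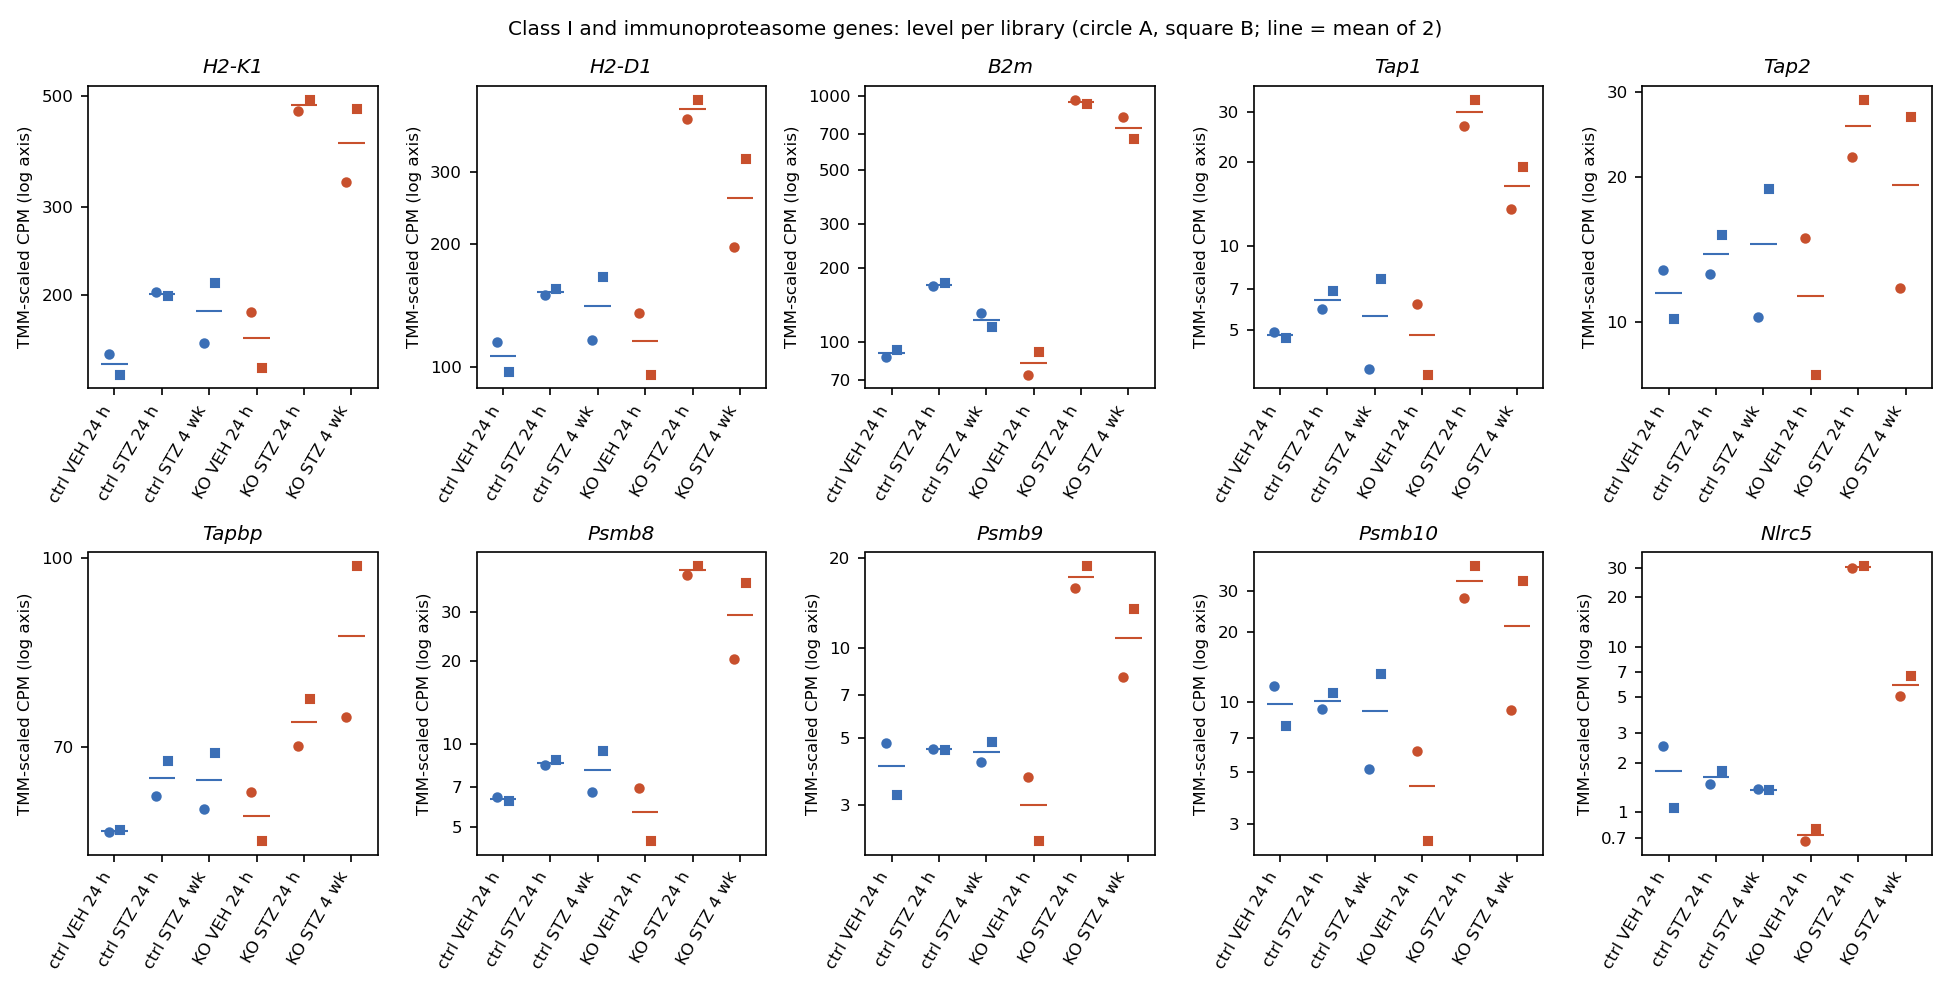
Level of each of the 10 genes in the 12 libraries, as TMM-scaled CPM on a log axis whose range differs between panels. Blue is control and red is knockout, circles are library A and squares library B, and lines are the mean of 2. Both knockout libraries at STZ 24 h lie above every control library for all 10 genes.

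Most of these genes were higher in knockout than in control islets after STZ, and none was called under vehicle. At STZ 24 h, 7 of the 10 genes were higher in knockout islets and none was lower, with a median log2 fold change of 1.81 against 0.00 over all genes tested. The background in that comparison was 23.7% of all genes called higher and 19.4% called lower. At STZ 4 wk, 7 of 10 were again higher and none lower (median 1.23), against 19.9% called higher and 7.89% called lower among all genes. The 7 calls at STZ 24 h were made again with any 1 library left out. At STZ 4 wk 4 of 10 were called without library A of control STZ 4 wk or without library B of the knockout, 9 without library A of the knockout, and 3 in a fit of only the 2 groups compared. Under vehicle none of the 10 was called (1.96% of all genes were called higher and 7.68% lower). At an unadjusted p under 0.05 the vehicle comparison held 1 member, Nlrc5, which the DESeq2 Wald test called.

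**Figure D2:**
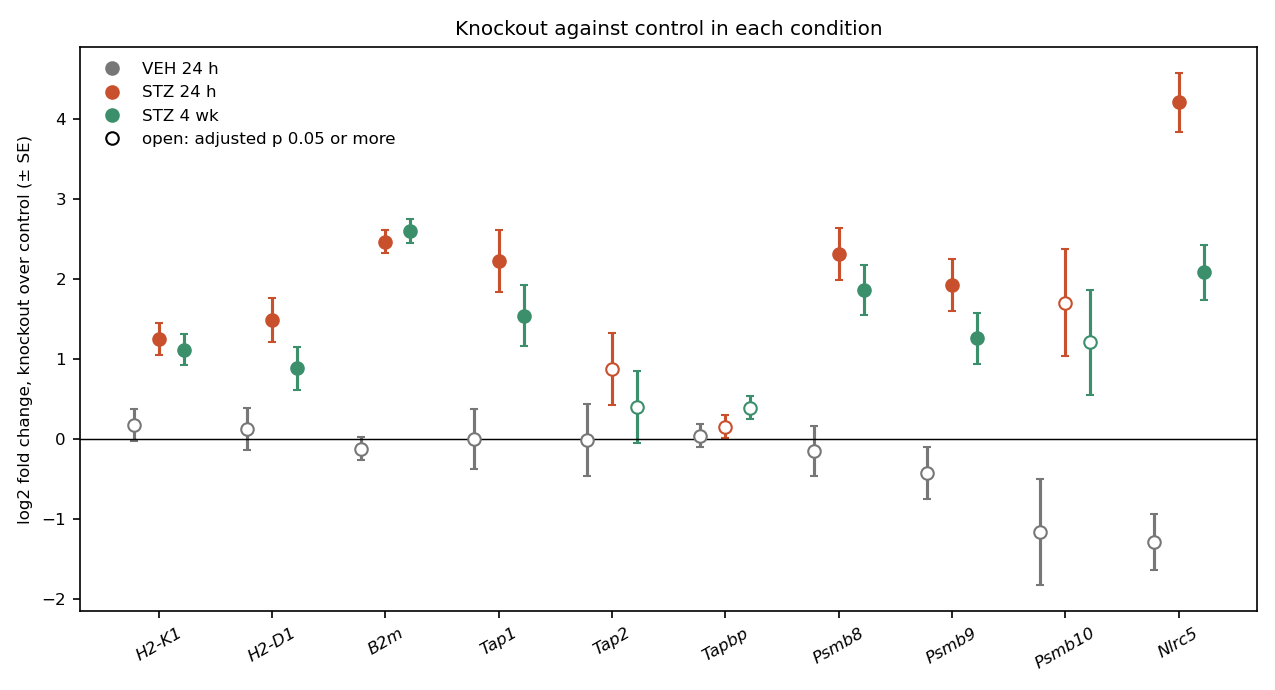
Log2 fold change of knockout over control (± SE, 2 libraries against 2) for each gene under VEH 24 h, STZ 24 h and STZ 4 wk. Filled points have an adjusted p under 0.05. The 7 filled points at STZ 24 h run from 1.25 (H2-K1) to 4.21 (Nlrc5), and no vehicle point is filled.

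Nlrc5, the class I transactivator, showed the widest swing of the 10. It stood at 2.50 and 1.07 CPM in control islets under vehicle, 1.49 and 1.78 at STZ 24 h and 1.38 and 1.37 at STZ 4 wk. Knockout islets held 0.671 and 0.793 CPM under vehicle, 30 and 30.6 at STZ 24 h, and 5.06 and 6.62 at STZ 4 wk. The control level thus stayed low throughout, the vehicle knockout libraries lay below every control library, and both injured knockout groups lay above every other library. Knockout over control was 4.21 ± 0.37 (log2) at STZ 24 h (edgeR adjusted p = 3.9e-05) and 2.09 ± 0.34 at STZ 4 wk (adjusted p = 0.0020). Under vehicle it was -1.29 ± 0.35 (adjusted p = 0.054), and it was called with the DESeq2 Wald test (adjusted p = 0.0038) and without library B of control VEH (-1.77, adjusted p = 0.0026). Within knockout islets Nlrc5 fell by 2.38 ± 0.34 (log2) from STZ 24 h to STZ 4 wk (adjusted p = 0.00083), and it was the only one of the 10 called in that comparison, where 20.2% of all genes were called higher and 15.5% lower. That count was 3 without library A and 4 without library B of knockout STZ 4 wk.

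B2m, the light chain shared by all class I molecules, had the highest TPM of the 10 in both injured knockout groups. Control islets held 86.9 and 92.3 CPM under vehicle, 168 and 173 at STZ 24 h, and 131 and 115 at STZ 4 wk. Knockout islets held 73.4 and 91.1 CPM under vehicle, 965 and 923 at STZ 24 h, and 818 and 670 at STZ 4 wk. All 4 injured knockout libraries lay well above all 8 others. Knockout exceeded control 5.53-fold at STZ 24 h (log2 2.47 ± 0.15, edgeR adjusted p = 6.0e-06) and 6.05-fold at STZ 4 wk (2.60 ± 0.15, adjusted p = 5.1e-06). B2m was also the only member called in control islets at STZ 24 h over vehicle (0.93 ± 0.14, adjusted p = 0.0037), a comparison in which 5.41% of all genes were called higher and 2.15% lower. A fit of only those 2 groups called 4 members higher, H2-K1, H2-D1 and Psmb8 besides B2m. From STZ 24 h to STZ 4 wk in knockout islets the difference was -0.34 ± 0.14 (adjusted p = 0.090).

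The heavy chains present the peptide itself and differed less than their light chain. H2-K1 stood at 153 and 139 CPM (control VEH), 203 and 200 (control STZ 24 h), 161 and 211 (control STZ 4 wk), 185 and 144 (knockout VEH), 466 and 491 (knockout STZ 24 h) and 337 and 469 (knockout STZ 4 wk). H2-D1 stood at 115 and 97.1, 150 and 155, 116 and 166, 135 and 95.8, 403 and 449, and 196 and 322 CPM in the same order. For both genes every injured knockout library exceeded every other library, by the narrowest margin for H2-D1 at STZ 4 wk. Knockout over control at STZ 24 h was 1.25 ± 0.20 for H2-K1 (edgeR adjusted p = 0.0010) and 1.49 ± 0.27 for H2-D1 (adjusted p = 0.0023). At STZ 4 wk the differences were 1.11 ± 0.20 (adjusted p = 0.0030) and 0.88 ± 0.27 (adjusted p = 0.039). The H2-D1 call at STZ 4 wk ended without library A of control STZ 4 wk (0.65, adjusted p = 0.20) and without library B of knockout STZ 4 wk (0.48, adjusted p = 0.20).

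Reads of class I heavy chains can be split between near-identical copies. Of the windows of 75 bases along the H2-D1 transcript, 6.90% also occur in transcripts of other genes (H2-Q1 and H2-T23 among them), and 1.55% of those of H2-K1 do. In the deposited annotation H2-L overlaps exons of H2-D1 on the same strand, so their estimated counts are uncertain. H2-L itself was low, at most 7.17 CPM. None of the windows of B2m, Tap1, Tap2, Psmb8, Psmb9, Psmb10 or Nlrc5 was shared.

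Within a library, the ratio of B2m to H2-K1 does not depend on how libraries are scaled. In TPM it was 1.09 and 1.27 (control VEH), 1.59 and 1.67 (control STZ 24 h), 1.57 and 1.04 (control STZ 4 wk) and 0.760 and 1.22 (knockout VEH). It was 3.97 and 3.61 in knockout islets at STZ 24 h and 4.66 and 2.74 at STZ 4 wk, above every other library. The ratio shows unequal change of the pair and was not tested. It is not free of differences in coverage along the transcript. In knockout islets at STZ 4 wk the share of H2-K1 coverage lying 5′ of the midpoint was 12.3% in A and 27.6% in B. At STZ 24 h that share was 19.3% and 23.7% in the knockout and 21.5% and 22.6% in the control.

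Of the 3 immunoproteasome subunits, Psmb8 and Psmb9 were higher in knockout than in control islets at both times after STZ, and Psmb10 was called at neither. The 8 libraries other than the injured knockouts serve as the comparison below. Psmb8 stood at 6.43 and 6.18 CPM (control VEH), 8.37 and 8.73 (control STZ 24 h), 6.71 and 9.39 (control STZ 4 wk), 6.90 and 4.44 (knockout VEH), 41.0 and 44.0 (knockout STZ 24 h) and 20.3 and 38.3 (knockout STZ 4 wk). Psmb9 ran from 2.26 to 4.86 CPM over the 8 libraries, with 16.0 and 18.8 CPM in knockout islets at STZ 24 h and 8.01 and 13.6 at STZ 4 wk. For both genes the 4 injured knockout libraries do not overlap with the rest. Knockout over control was 2.31 ± 0.32 for Psmb8 (edgeR adjusted p = 0.00049) and 1.92 ± 0.33 for Psmb9 (adjusted p = 0.0015) at STZ 24 h. At STZ 4 wk it was 1.86 ± 0.32 (adjusted p = 0.0024) and 1.26 ± 0.32 (adjusted p = 0.019). The Psmb9 call at STZ 4 wk ended without either control library or library B of the knockout (adjusted p = 0.058 to 0.10).

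Psmb10, the third inducible subunit, varied most between the libraries of a group. It stood at 11.8 and 7.90 CPM (control VEH), 9.37 and 11.0 (control STZ 24 h), 5.14 and 13.2 (control STZ 4 wk), 6.20 and 2.53 (knockout VEH), 28 and 38.3 (knockout STZ 24 h) and 9.22 and 33.2 (knockout STZ 4 wk). Groups separate at STZ 24 h and overlap at STZ 4 wk, where library A of the knockout falls among the controls. Knockout over control was 1.71 ± 0.67 at STZ 24 h (edgeR adjusted p = 0.070) and 1.21 ± 0.66 at STZ 4 wk (adjusted p = 0.22), neither called. Leaving out the 3 libraries with less 5′ coverage in the groups whose libraries differed most, an alternative chosen after seeing the data, gave 1.70 (adjusted p = 0.00093) and 1.33 (adjusted p = 0.022).

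Each inducible subunit can be set against the constitutive subunit it replaces in the particle. The TPM ratio of Psmb8 to Psmb5 was between 0.221 and 0.297 in all 6 control libraries and both vehicle knockout libraries. It was 0.955 and 0.940 in knockout islets at STZ 24 h and 1.08 and 0.963 at STZ 4 wk. The ratio therefore separated the 4 injured knockout libraries from all 8 others, and it stayed close between A and B where the single genes did not. Psmb9 to Psmb6 gave 0.110 to 0.181 in the 8 libraries, 0.455 and 0.473 at STZ 24 h and 0.360 and 0.351 at STZ 4 wk. Psmb10 to Psmb7 gave 0.0249 to 0.172 in the 8 libraries, 0.238 and 0.344 at STZ 24 h, and 0.0899 and 0.419 at STZ 4 wk, where the groups overlap. These ratios are descriptions with no test.

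**Figure D3:**
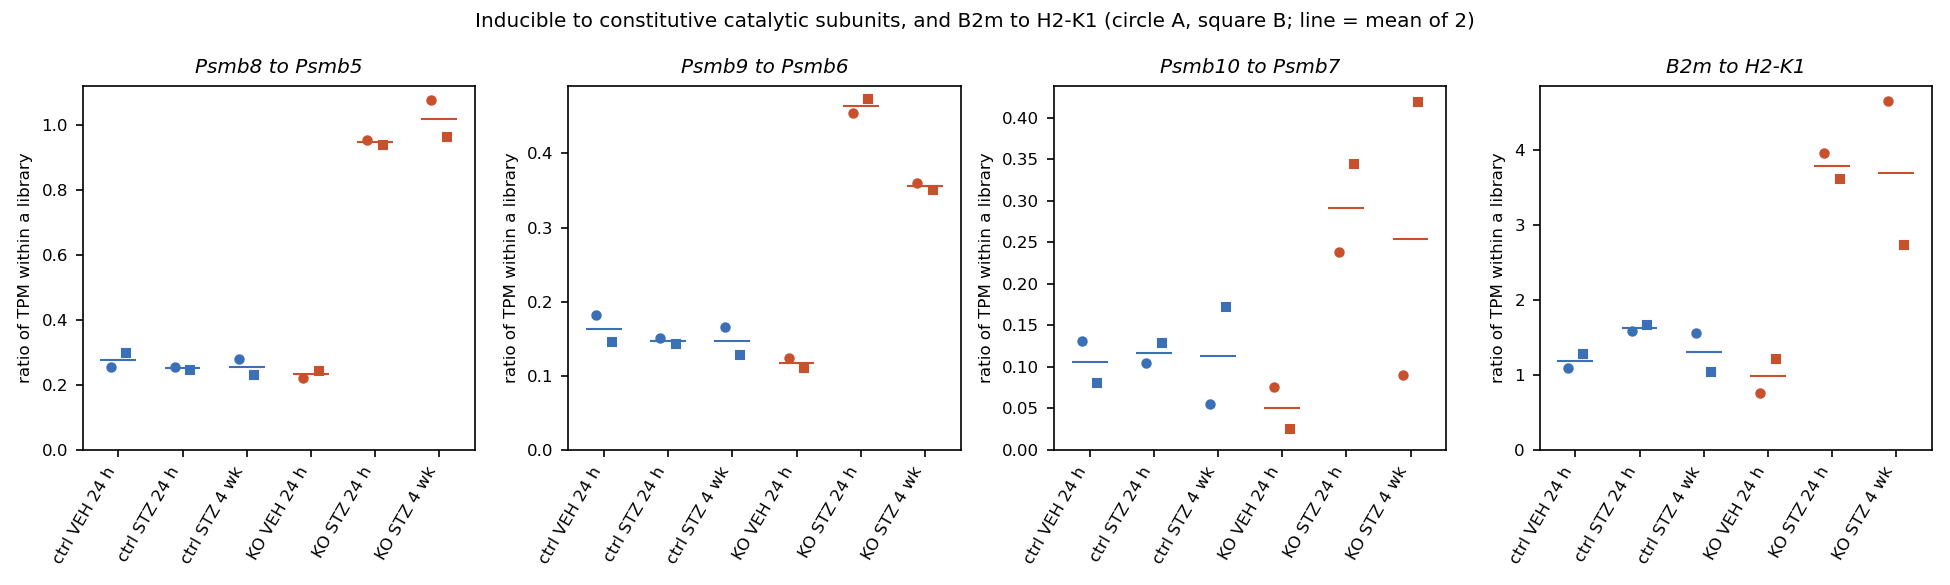
Ratio of TPM values within each library for 3 inducible to constitutive proteasome pairs and for B2m to H2-K1, on linear axes from 0; circles are library A, squares library B and lines the mean of 2. Psmb8 to Psmb5 is between 0.94 and 1.08 in the injured knockout libraries and at most 0.297 elsewhere.

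The constitutive partners themselves were not called between genotypes. Psmb5 differed by 0.40 ± 0.39 at STZ 24 h (edgeR adjusted p = 0.44), Psmb6 by 0.26 ± 0.30 (adjusted p = 0.52) and Psmb7 by 0.39 ± 0.16 (adjusted p = 0.083). Of 14 genes of the constitutive proteasome core, 1 was called higher at STZ 24 h (Psmb1, 0.27 ± 0.09, adjusted p = 0.032) and none at STZ 4 wk. Of 27 genes of caps and assembly factors, 7 rose and none fell at STZ 24 h, and 2 rose and 1 fell at STZ 4 wk. Those 7 are a share close to the 23.7% of all genes called higher at STZ 24 h, and the 2 are a smaller share than the 19.9% at STZ 4 wk. The 2 that rose at STZ 4 wk were Psme1 and Psme2, which form the interferon-inducible activator cap. Psme1 was 1.25 ± 0.11 higher at STZ 24 h (adjusted p = 2.7e-05) and 1.11 ± 0.11 higher at STZ 4 wk (adjusted p = 7.3e-05). Psme2 was 0.67 ± 0.13 higher (adjusted p = 0.0032) and 1.11 ± 0.13 higher (adjusted p = 0.00029) at those times.

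Tap1, a subunit of the peptide transporter, was higher in knockout than in control islets at both times after STZ. It stood at 4.93 and 4.69 CPM (control VEH), 5.93 and 6.91 (control STZ 24 h), 3.63 and 7.58 (control STZ 4 wk), 6.17 and 3.46 (knockout VEH), 26.7 and 33.3 (knockout STZ 24 h) and 13.5 and 19.2 (knockout STZ 4 wk). Every injured knockout library held more Tap1 than every other library. Knockout over control was 2.22 ± 0.39 at STZ 24 h (edgeR adjusted p = 0.0017) and 1.54 ± 0.38 at STZ 4 wk (adjusted p = 0.016). The second call ended without library A of the control (1.11, adjusted p = 0.074) or library B of the knockout (1.27, adjusted p = 0.059). The low Tap1 values of control STZ 4 wk A and knockout VEH B come with estimated coverage of the last exon of 1.0 and 1.03, against 16.0 or more in the other 10 libraries.

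Tap2, which pairs with Tap1 in the transporter, was not called in any of the 12 comparisons. It stood at 12.8 and 10.1 CPM (control VEH), 12.6 and 15.2 (control STZ 24 h), 10.2 and 18.8 (control STZ 4 wk), 14.9 and 7.78 (knockout VEH), 21.9 and 28.9 (knockout STZ 24 h) and 11.8 and 26.6 (knockout STZ 4 wk). Both knockout libraries at STZ 24 h exceeded all controls, and at STZ 4 wk the genotypes overlap. Knockout over control was 0.87 ± 0.45 at STZ 24 h (edgeR adjusted p = 0.15) and 0.40 ± 0.45 at STZ 4 wk (adjusted p = 0.58). A fit of only the groups compared called the first (0.87, adjusted p = 0.00087). The difference between Tap1 and Tap2 in these effects was not tested.

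Tapbp, which holds the empty heavy chain at the transporter, differed least. It ran from 59.7 to 69.3 CPM in control islets, 64.4 and 58.7 CPM in vehicle knockout, 70.2 and 76.7 in knockout at STZ 24 h and 74.1 and 98.4 at STZ 4 wk. The injured knockout libraries lay above all others, by under 1 CPM for the lowest. Knockout over control was 0.15 ± 0.14 at STZ 24 h (edgeR adjusted p = 0.42) and 0.39 ± 0.14 at STZ 4 wk (adjusted p = 0.073). Among 15 other genes of peptide loading and trimming, 1 rose (Wdfy4, known from cross-presentation in dendritic cells, 5.47 ± 0.27, adjusted p = 2.7e-06) and 4 fell at STZ 24 h. At STZ 4 wk 1 rose (Wdfy4 again, 2.87 ± 0.24, adjusted p = 4.3e-05) and 4 fell, Calr (calreticulin, a chaperone of the loading complex) among them at -0.76 ± 0.09 (adjusted p = 0.00037). The shares of all genes called were 23.7% higher and 19.4% lower at STZ 24 h, and 19.9% and 7.89% at STZ 4 wk. Both named genes already differed between genotypes under vehicle, in the other direction. Wdfy4 was lower in the knockout there (-3.46 ± 0.27, edgeR adjusted p = 7.1e-05) and Calr higher (0.58 ± 0.09, adjusted p = 0.0045).

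The STZ response differed between genotypes for most members. Within knockout islets 8 of 10 rose from vehicle to STZ 24 h, led by Nlrc5 (5.37 ± 0.40, edgeR adjusted p = 5.9e-06) and B2m (3.52 ± 0.16, adjusted p = 3.3e-07), against 30.1% of all genes called higher and 26.2% lower. Psmb10 was among them (2.92 ± 0.70, adjusted p = 0.0068), and Tap2 and Tapbp were not. The difference between genotypes of the STZ 24 h effect was called higher for 8 genes, H2-K1, H2-D1, B2m, Tap1, Psmb8, Psmb9, Psmb10 and Nlrc5, against 21.1% of all genes higher and 16.6% lower. It was called for 5 without library B of control STZ 24 h or library A of control VEH. At STZ 4 wk over vehicle, 9 of 10 were higher in knockout islets (24.1% of all genes higher, 11.7% lower), Tap2 being the exception at 0.76 ± 0.45 (adjusted p = 0.23). None of the 10 was called at STZ 4 wk over vehicle in control islets, where 4.98% of all genes were higher and 4.01% lower. There 1 member, B2m, had an unadjusted p under 0.05 and was called by the DESeq2 Wald test. The difference between genotypes at 4 wk was called higher for 5 members, B2m, Nlrc5, Psmb8, Psmb9 and H2-K1 (18.7% of all genes higher, 7.35% lower). Of these counts the last ranged from 3 to 9 with 1 library left out: it was 3 without library A of control STZ 4 wk, library A of control VEH, library B of knockout STZ 4 wk or library B of knockout VEH, and 9 without library A of knockout STZ 4 wk.

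The change from STZ 24 h to STZ 4 wk called none of the 10 in control islets, against 1.27% of all genes higher and 4.22% lower. There too 1 member, B2m, had an unadjusted p under 0.05 and was called by the DESeq2 Wald test. The difference between genotypes in that change was called for Nlrc5 alone (-2.12 ± 0.47, edgeR adjusted p = 0.020), against 8.79% of all genes higher and 5.09% lower. That call was lost when either library of control STZ 24 h, or either of knockout STZ 24 h, was left out. The comparisons in this paragraph and the one before share groups with each other and with the genotype comparisons, so they are not separate support.

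Genes of class I regulation and interferon signalling were in part higher in knockout than in control islets after STZ. Of 26 such genes tested, 15 rose and 2 fell in knockout over control at STZ 24 h, and 10 rose and 1 fell at STZ 4 wk. Over all genes 23.7% were called higher and 19.4% lower at STZ 24 h, and 19.9% and 7.89% at STZ 4 wk. The list's median log2 fold change was 0.71 and 0.30 at those times, against 0.00 and 0.01 over all genes. Irf1, an interferon-induced activator of class I genes, differed by 0.86 ± 0.13 at STZ 24 h (edgeR adjusted p = 0.00062) and 0.82 ± 0.13 at STZ 4 wk (adjusted p = 0.0012). Ciita, the class II counterpart of Nlrc5, rose from 1.46 and 1.31 CPM in control to 30.8 and 37.1 CPM in knockout islets at STZ 24 h (4.61 ± 0.36, adjusted p = 2.0e-05). Rfx5, which binds the X box beside Nlrc5, was -0.17 ± 0.10 at STZ 24 h (adjusted p = 0.24) and fell by 0.51 ± 0.11 at STZ 4 wk (adjusted p = 0.0062).

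Interferon gamma itself was near the limit of detection. Ifng had 0 counts in all 6 control libraries and both vehicle knockout libraries, 35 and 18 counts in knockout islets at STZ 24 h, and 20 and 9 counts at STZ 4 wk. The test called the first difference (edgeR adjusted p = 0.023) and not the second (adjusted p = 0.053). Ifnb1 had 0 counts in every library. Of the receptor subunits, Ifngr1 was 1.61 ± 0.09 higher at STZ 24 h (adjusted p = 4.3e-06) and 1.24 ± 0.09 higher at STZ 4 wk (adjusted p = 1.6e-05). Ifngr2 was 1.48 ± 0.14 higher at STZ 24 h (adjusted p = 6.2e-05) and 2.40 ± 0.15 higher at STZ 4 wk (adjusted p = 6.8e-06).

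Other class I heavy chains moved as well. Of 21 relatives tested, 15 rose and none fell at STZ 24 h, and 11 rose and none fell at STZ 4 wk, against 23.7% and 19.9% of all genes called higher. Their median log2 fold change was 1.75 and 1.53. Under vehicle 2 of the 21 were called lower in the knockout and 0 higher, against 7.68% and 1.96% of all genes. Cd1d1 was 1 of those 2 (-0.56 ± 0.15, edgeR adjusted p = 0.049). Cd1d1, which presents lipids to NKT cells, rose from 11.7 and 9.40 CPM in control to 35.4 and 34.3 CPM in knockout islets at STZ 24 h (1.73 ± 0.14, edgeR adjusted p = 2.6e-05). H2-Q1 was at 4.25 and 4.15 CPM in control and 84.8 and 72.1 CPM in knockout islets at STZ 4 wk (4.22 ± 0.19, adjusted p = 1.6e-06). H2-T3, the thymus leukaemia antigen known from intestinal epithelium, stood at 2.24 and 2.74 CPM in control and 59.5 and 72.3 CPM in knockout islets at STZ 4 wk. Marker genes of intestine, 8 in all, summed to 218 to 242 CPM in control islets at STZ 4 wk and 6825 to 7781 CPM in knockout islets at STZ 4 wk. These intestinal sums already differed at STZ 24 h, at 133.5 to 134.8 CPM in control and 940.4 to 957.9 CPM in knockout islets. The part of intestinal tissue in the differences of H2-Q1, H2-T3 and the other relatives was not tested.

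Summed markers of leukocytes were also higher in knockout than in control islets at both times after STZ. The 12 macrophage markers, with Adgre1 and Csf1r among them, summed to 97.2 to 102 CPM in control islets under vehicle, 203 to 209 at STZ 24 h and 121 to 131 at STZ 4 wk. In knockout islets they summed to 73.1 to 77.7 CPM under vehicle, 1651 to 1671 at STZ 24 h and 366 to 427 at STZ 4 wk. All 12 were called higher in knockout islets at STZ 24 h, and 11 of 12 at STZ 4 wk, against 23.7% and 19.9% of all genes. From STZ 24 h to STZ 4 wk within knockout islets all 12 were called lower, with a median log2 fold change of -1.89. In that comparison 1 of the 10 members was called lower, and 15.5% of all genes were. The members' median log2 fold change was -0.59, against 0.10 over all genes. Their count called changed with the test and the scaling, as given below. Whether members and macrophage markers changed together was not tested. No macrophage marker was at 0 in any group.

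T-cell markers summed to between 0.834 and 2.02 CPM in the control groups and the vehicle knockout, 79.6 to 84.1 CPM in knockout islets at STZ 24 h and 38.3 to 39.0 CPM at STZ 4 wk, and all 8 were called higher at both times. For this and the marker counts that follow, 23.7% of all genes were called higher at STZ 24 h and 19.9% at STZ 4 wk. Cd3e had 0 counts in 5 of the 8 libraries other than the injured knockouts. Cd8a, the receptor partner of class I, was at most 0.240 CPM in those 8 libraries, with 10.3 and 7.85 CPM in knockout islets at STZ 24 h and 7.13 and 7.45 CPM at STZ 4 wk. B-cell markers summed to 370.5 and 371.2 CPM in the knockout libraries at STZ 24 h and 15.4 to 20.5 CPM at STZ 4 wk. In control islets they summed to 20.3 to 22.4 CPM under vehicle, 4.06 to 4.39 at STZ 24 h and 3.25 to 4.33 at STZ 4 wk, and 6 of 6 were called higher in the knockout at STZ 24 h and 5 of 6 at STZ 4 wk. Vehicle knockout islets held 3.23 to 4.49 CPM of B-cell markers. There 4 of 6 were called lower than in vehicle control islets, as were 7.68% of all genes. Markers of lymphoid tissue, 6 genes with Glycam1, Madcam1, Ccl21a and Cr2 among them, summed to 1.43 to 1.71 CPM in control and 226 to 233 CPM in knockout islets at STZ 24 h, where 6 of 6 were called higher. Their sums at STZ 4 wk were 0.148 to 0.226 CPM in control and 4.32 to 11.9 CPM in knockout islets, with 5 of 6 called higher. Under vehicle these markers of lymphoid tissue summed to 5.04 to 6.26 CPM in control and 0.036 to 0.074 CPM in knockout islets. Liver markers, 8 genes, also moved, from 5586 to 5651 CPM in control islets to 16620 to 17220 CPM in knockout islets at STZ 24 h, and from 2282 to 2406 to 7753 to 7843 CPM at STZ 4 wk. In bulk RNA, fewer cells of a type and less RNA per cell cannot be told apart, and the part of leukocytes or of other tissue in the class I differences was not tested.

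**Figure D4:**
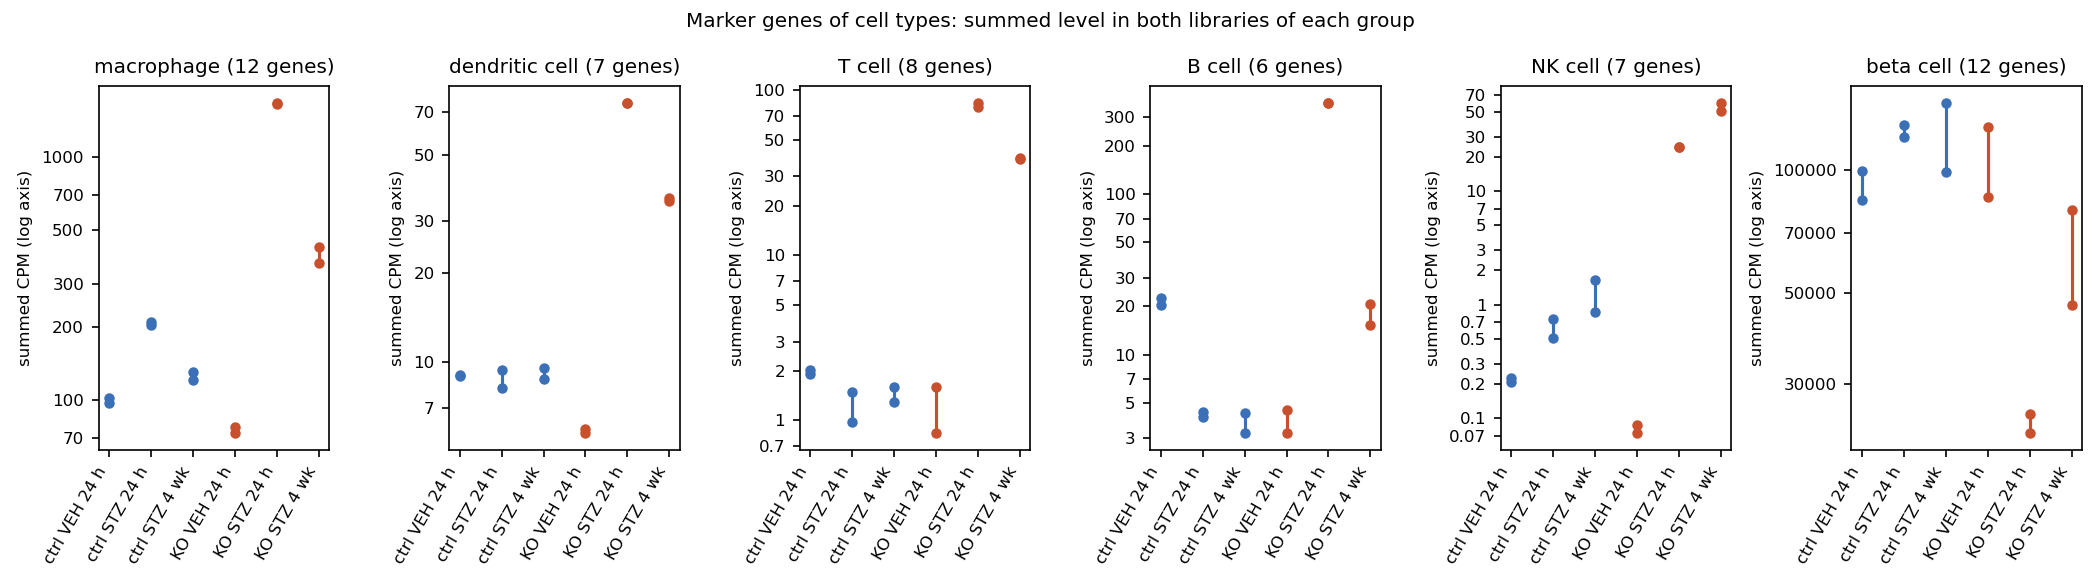
Summed CPM (log axis) of marker genes of 6 cell types in both libraries of each group, blue for control and red for knockout. Macrophage, dendritic, T-cell and NK-cell sums are higher in both injured knockout groups than in the other groups, and beta-cell sums are lower in both. B-cell sums are higher in the knockout than in the control at each time after STZ, while at STZ 4 wk they lie near the control under vehicle.

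The members differed in how closely they tracked each other over the 12 libraries, which is a description across libraries that share groups and depth. The correlation of a gene's log2 CPM with the mean standardised profile of the other members was 0.991 for Psmb8, 0.985 for Psmb9, 0.982 for H2-D1, 0.980 for H2-K1 and 0.978 for Tap1. It was 0.906 for Nlrc5, 0.904 for B2m, 0.902 for Psmb10, 0.866 for Tap2 and 0.790 for Tapbp. The genes outside the list most like the members' mean profile were H2-DMa (r = 0.993), Ctsz (0.992), Zc3h12a (0.991), Uba7 (0.991) and Rhog (0.990), over the same 12 libraries.

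The pan-endocrine genes are 18 genes shared by islet cell types, with Chga, Cpe and Neurod1 among them and without Ins1, Ins2, Gcg or Sst. Scaling to them raised the median of all genes by 1.90 (log2) in knockout over control at STZ 24 h. Under that scaling all 10 members were called higher at STZ 24 h, with Tapbp at 2.06, close to that shift, and H2-K1 at 3.15. From STZ 24 h to STZ 4 wk within knockout islets the same scaling shifted the median of all genes by -1.41, and all 10 members were then called lower. The share of all genes called under this scaling is not given. These counts therefore do not set the members apart from other genes.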

How the data were processed

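Poly(A)-selected, stranded libraries were sequenced as paired-end reads, per the labels' protocols. The authors deposited estimated counts (expected counts) per gene, made with StringTie 1.3.6 per the file headers on mm10 per the submitters' processing notes, and per-transcript files with coverage signal and TPM. No source used here names an aligner. The counts were rounded and tested with edgeR 4.0.16 (R 4.3.3): TMM scaling, filterByExpr, a mean for each of 6 groups, a robust quasi-likelihood fit with 6 residual degrees of freedom, and Benjamini-Hochberg adjustment over 17411 genes. The fit was tested on simulated data for knockout against control at STZ 24 h, where it called 27% of 2-fold and 92% of 4-fold changes. There 200 of 16951 genes were changed, a far smaller share than was called in the data at STZ 24 h, so recovery there may differ. The 10 genes, the pathway lists and the marker lists were chosen with earlier results of these data known. Genes named besides the members were a fixed set of partners and markers, up to 3 genes of smallest adjusted p per pathway list, and the 5 genes most like the members' mean profile; Cd1d1, H2-Q1, H2-T3 and Calr come from the second rule. Motifs were searched in RefSeq promoter windows. Alternatives were DESeq2 1.42.0 (size factors and Wald test), other scalings, no filter, replicate blocks, smaller fits and leaving out libraries. 1 named gene of the list of class I regulators and interferon signalling is counted in its list but not reported here.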

Additional observations from a re-analysis of the deposited data

Results flagged for a closer look

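The effect of STZ differed between genotypes by the test of the difference itself (knockout minus control, log2, edgeR). At 24 h the difference was 5.50 for Nlrc5, 2.87 for Psmb10, 2.59 for B2m, 2.46 for Psmb8, 2.35 for Psmb9, 2.22 for Tap1, 1.36 for H2-D1 and 1.08 for H2-K1. For STZ at 4 wk against vehicle it was 3.37 for Nlrc5, 2.72 for B2m, 2.01 for Psmb8, 1.69 for Psmb9 and 0.94 for H2-K1. For the change from STZ 24 h to STZ 4 wk it was -2.12 for Nlrc5. With 2 libraries a group no library could be tested as standing apart from its group.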

How the results depend on the processing

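Counts of the 10 genes called are given by setting, the TMM-scaled edgeR count first. The share of all genes called is not given for the alternatives, so their counts describe the members only. Without the 3 libraries of low 5′ coverage (control STZ 4 wk A, knockout VEH B and knockout STZ 4 wk A), an alternative chosen after seeing the data, counts went from 0 to 3 in knockout against control under vehicle, 1 to 5 in control STZ 24 h against vehicle, and 0 to 6 in control STZ 4 wk against vehicle. They went from 0 to 1 (control) and 1 to 5 (knockout) in STZ 4 wk against STZ 24 h, 5 to 9 in the genotype difference of the 4 wk effect, and 1 to 2 in that of the change from 24 h to 4 wk. Fitting only the groups compared gave 4 in control STZ 24 h against vehicle, 3 in knockout against control at STZ 4 wk (from 7), and 2 in the genotype difference of the 4 wk effect. The DESeq2 Wald test gave 1 under vehicle, 1 in control STZ 4 wk against vehicle, and 1 (control) and 5 (knockout) in STZ 4 wk against STZ 24 h, where DESeq2 size factors gave 2 for the knockout. Total-count scaling gave 3 under vehicle, 2 and 3 in control STZ 24 h and STZ 4 wk against vehicle, 2 in knockout STZ 4 wk against STZ 24 h, and 3 in the genotype difference of the 4 wk effect. Pan-endocrine scaling gave 1 under vehicle, 1 (control) and 10 (knockout) in STZ 4 wk against STZ 24 h, and 9 in the genotype difference of both the 4 wk effect and the later change.

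Directions turned in 5 cases, each under another scaling. Under pan-endocrine scaling the genotype difference of the change from 24 h to 4 wk was -1.09 for B2m and -0.99 for Tapbp, and Tapbp in knockout STZ 4 wk against STZ 24 h was -1.18. Under total-count scaling B2m in knockout against control under vehicle was 0.41, and the Tapbp genotype difference of the 24 h effect was -0.68. These scalings shift the median of all genes, by 0.53 under vehicle (total count) and by -1.22 in the genotype difference of the later change (pan-endocrine).

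With 1 library left out, counts ranged from 0 to 1 under vehicle, 4 to 9 in knockout against control at STZ 4 wk, 1 to 4 in knockout STZ 4 wk against STZ 24 h, 5 to 8 and 3 to 9 in the genotype differences of the 24 h and 4 wk effects, and 0 to 1 in that of the later change. A group left with 1 library is assumed to vary like the others.

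The letters A and B carry no stated meaning, and correlations of the A minus B gaps between groups ran from -0.39 to 0.48 over genes, so they were not taken to pair libraries. A replicate block on the letters gave 7 members in knockout against control at STZ 24 h and 6 at STZ 4 wk, and changed 4 of 120 gene results. A replicate block within condition gave 2 under vehicle, 9 in the genotype difference of the 4 wk effect and 3 in that of the later change. No filter on low counts changed none of 120. With 2 libraries a group, differences near 2-fold were often missed in simulated data, in which only 200 of 16951 genes were changed.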
